A study of Mus musculus with 54 samples.

Results

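The trigeminal ganglion (TG) houses the cell bodies of the sensory neurons of the face and cornea, wrapped by satellite glia and joined by Schwann cells, resident macrophages, blood vessels and connective tissue. The data described here are the TG libraries of SNS-CKO mice, in which the miR-183/96/182 cluster (miR-183C) was deleted in nociceptors, and of WT controls of the same strain. They are 7 of the 54 samples of the series, 3 SNS-CKO and 4 SNS-WT, each of 1 mouse. They were chosen as the TG columns whose name carries NACC, which was read as the mark of the SNS strain because the column names do not spell the strain out. All 7 mice were males of 8 to 12 weeks that carried Nav1.8-Cre(+/-), the Cre-dependent reporter R26 LSL-RFP(+/+) and the Csf1r-EGFP(+/+) transgene of myeloid cells. The groups differed in the cluster itself, which was floxed on both alleles (f/f) in SNS-CKO mice and intact (+/+) in SNS-WT mice. Cre, the red reporter and the green transgene were therefore present in both groups.

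The Nav1.8 promoter belongs to Scn10a, a sodium channel gene of most nociceptors and of a small part of the large mechanoreceptors, so satellite glia, Schwann cells, macrophages and most mechanoreceptors of an SNS-CKO ganglion keep the cluster. Whole ganglia were sequenced, and a change inside the nociceptors is therefore read against the RNA of every other cell. In such bulk tissue fewer cells of a type and less RNA per cell cannot be told apart. The SNS-WT mice were littermates of SNS-CKO mice by the study's methods, but the sources used here do not say which libraries share a litter. The p-values therefore measure the spread between these libraries.

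MicroRNAs bind mRNAs mainly through bases 2 to 8, the seed, and lower the stability or translation of mRNAs whose 3′ UTR holds the complement. The members of miR-183C are transcribed together in sensory organs and sensory ganglia, and loss of the cluster in mice impairs vision, hearing, balance and touch. The mature sequences are printed because every site counted below was defined from them. They are RefSeq entries on chromosome 6 of GRCm38.p6, minus strand, at chr6:30169711-30169732 for miR-183-5p, chr6:30169506-30169528 for miR-96-5p and chr6:30165962-30165986 for miR-182-5p, with the seed in capitals.
miR-183-5p: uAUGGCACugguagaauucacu
miR-96-5p: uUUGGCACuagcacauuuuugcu
miR-182-5p: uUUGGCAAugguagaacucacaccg
The seeds of the 3 differ from each other, and sites were therefore counted for each miRNA on its own.

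The deposited reads were 2987054 to 4098094 counts per library, with 17623 to 18541 genes detected. No TG column of the SNS strain repeated another column of the table. Pairs of libraries correlated at 0.964 to 0.974 within and between the groups. The tissue label was checked with marker genes: summed levels of the 17 general sensory neuron markers lay at 27457 to 28936 CPM in SNS-CKO and 27230.0 to 30513 CPM in SNS-WT, and those of 18 markers of myelinating Schwann cells at 18681 to 23216 CPM in SNS-CKO and 19628 to 22501 CPM in SNS-WT. Levels are in CPM, counts scaled to an equal library size with TMM factors. Markers of lymphocytes summed to 1.23 to 2.02 CPM in SNS-CKO and 1.99 to 3.38 CPM in SNS-WT, and those of skeletal muscle to 6.34 to 13.1 CPM in SNS-CKO and 4.42 to 12.5 CPM in SNS-WT, and no gene of either list had enough counts to be tested.

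The difference between the groups was largest, over all genes tested, in the deleted locus itself. Mirc35hg, the host transcript that spans the cluster on chr6:30158640-30174125, was read at 50.7, 49.7 and 52.9 CPM in SNS-CKO, against 2.04, 0.26, 0.57 and 3.58 CPM in SNS-WT. Every SNS-CKO library stood far above every SNS-WT library. The log2 change was 5.0 ± 0.31 (SE, adjusted p = 2.4e-11, edgeR's quasi-likelihood test with Benjamini-Hochberg adjustment). QuantSeq reads tags near the 3′ ends of polyadenylated RNA, so the mature miRNAs themselves were not measured and these counts give no efficiency of the deletion. Scn10a, whose promoter drives Cre, was read at 277, 269 and 295 CPM in SNS-CKO, against 271, 314, 259 and 283 CPM in SNS-WT, and its groups overlapped. Of 21 tested genes within 1 Mb of Mirc35hg, a window chosen after the values had been seen, 16 had a positive log2 change and 0 passed the adjusted p, with a median of 0.14 and a range of -0.49 to 0.51.

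Beyond this locus few genes passed the test. Of 12769 genes tested, 5 passed an adjusted p of 0.05, which is 0.0392% of them, with 3 higher and 2 lower in SNS-CKO. Without adjustment 852 genes had a p under 0.05 (6.67%), of which 442 were higher (3.46%) and 410 lower (3.21%). The groups did not overlap for 941 genes (7.37%), with all SNS-CKO libraries above in 488 (3.82%) and below in 453 (3.55%). An exact permutation test of 3 against 4 libraries has 35 assignments and gives such a gene its smallest two-sided p, 0.0571. Positive log2 changes were found for 6374 genes (49.9%) and negative ones for 6395 (50.1%), so that the distribution was centred at 0. These shares are the background against which the gene lists below are read.

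The size of the differences followed the depth of each gene. Over all genes the median absolute log2 change was 0.133, against a median SE of 0.183, and 678 genes (5.31%) differed by more than 1.5-fold. Among the 2168 genes at 100 CPM or more the median absolute change was 0.0776 and the median SE 0.0929, and 6 genes lay beyond 1.5-fold. Among the 1536 genes under 5 CPM the median absolute change was 0.350 and the median SE 0.483, and 382 lay beyond 1.5-fold. The values of rare transcripts below are therefore given with their SE.

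**Figure D1:**
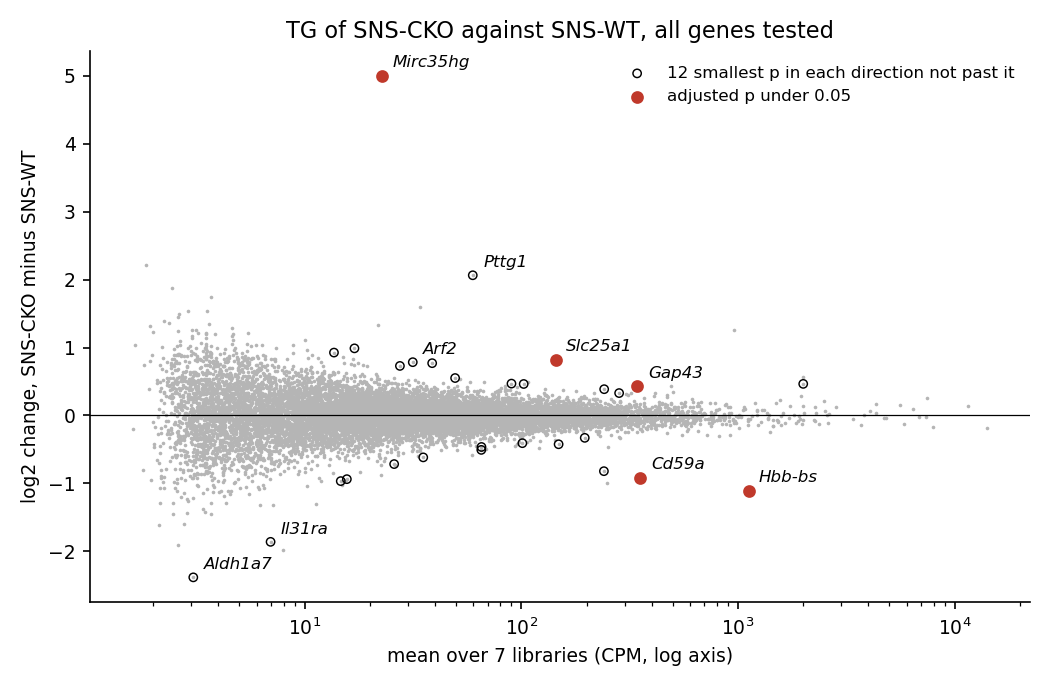
Log2 change of SNS-CKO over SNS-WT TG (vertical axis) against the mean level in CPM over the 7 libraries (horizontal log axis), 1 grey point per gene for the 12769 genes tested. Filled red points are the 5 genes past an adjusted p of 0.05 and open circles the 12 in each direction with the next smallest p. The cloud is centred at 0 and narrows with level, and Mirc35hg stands alone at a log2 change of 5.0.

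Slc25a1 and Gap43 were the genes outside the locus that rose. Slc25a1, the mitochondrial citrate carrier that exports citrate for fatty acid and sterol synthesis, was read at 205, 177 and 194 CPM in SNS-CKO, against 115, 106, 105 and 109 CPM in SNS-WT. The groups were far apart, with means of 192 ± 14.4 CPM in SNS-CKO and 109 ± 4.35 CPM in SNS-WT (SD, n = 3 and 4), a gain of 76.5%. The log2 change was 0.82 ± 0.09 (adjusted p = 9.5e-06), and the gene passed with each other tool, filter and set of libraries tried for this reading of the column names. Gap43, a membrane protein of growth cones that rises in growing and regenerating axons, was read at 405, 396 and 409 CPM in SNS-CKO, against 272, 321, 318 and 284 CPM in SNS-WT. Its groups did not overlap either, and its log2 change was 0.43 ± 0.08 (adjusted p = 0.034). Leaving out single libraries moved the adjusted p of Gap43 between 0.016 and 0.26, and of these 7 fits it passed in those without SNS-WT 2 or SNS-WT 3.

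Cd59a and Hbb-bs were the genes that fell. Cd59a, a membrane anchored inhibitor of the terminal complement complex, was read at 225, 237 and 245 CPM in SNS-CKO, against 266, 456, 542 and 513 CPM in SNS-WT. Its groups did not overlap, but SNS-WT 1 lay close to the SNS-CKO libraries and far from the other SNS-WT libraries. The log2 change was -0.91 ± 0.14 (adjusted p = 0.0025 with edgeR and 0.30 with DESeq2). Cd59b, its related neighbour on chromosome 2, was read at 48.7, 51.7 and 65.1 CPM in SNS-CKO, against 67.3, 0.779, 1.71 and 3.58 CPM in SNS-WT, so the SNS-WT library low in Cd59a was high in Cd59b. Its log2 change was 1.60 ± 0.57 and did not pass (adjusted p = 0.57), and without SNS-WT 1 it was 4.78 (adjusted p = 9.1e-14). The sum of the pair was 274, 288 and 309.8 CPM in SNS-CKO, against 333, 456, 543 and 517 CPM in SNS-WT, and the log2 ratio of the mean sums was -0.67. Reads of related genes may be shared between them, and the strain background was mixed. The part that either plays was not tested.

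Hbb-bs, an adult beta globin, was read at 874, 612 and 536 CPM in SNS-CKO, against 2206, 769, 1582 and 1259.8 CPM in SNS-WT, and the groups overlapped in SNS-WT 2. Its log2 change was -1.11 ± 0.20 (adjusted p = 0.015 with edgeR and 0.66 with DESeq2). The other 5 tested erythrocyte genes also had negative changes, among them Hbb-bt at -0.82, a near-identical globin whose reads may be shared. Summed erythrocyte genes lay at 1425, 997 and 883 CPM in SNS-CKO, against 3386, 1165, 2466 and 1836 CPM in SNS-WT, and 3 of the 4 SNS-WT libraries stood above all SNS-CKO libraries. Red cell RNA enters a dissected ganglion with its blood, and whether blood content set the change of Hbb-bs was not tested. Without SNS-CKO 2 the adjusted p was 0.14 for Cd59a and 0.42 for Hbb-bs, and without SNS-CKO 3 it was 0.084 and 0.36, so neither passed without either library.

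**Figure D2:**
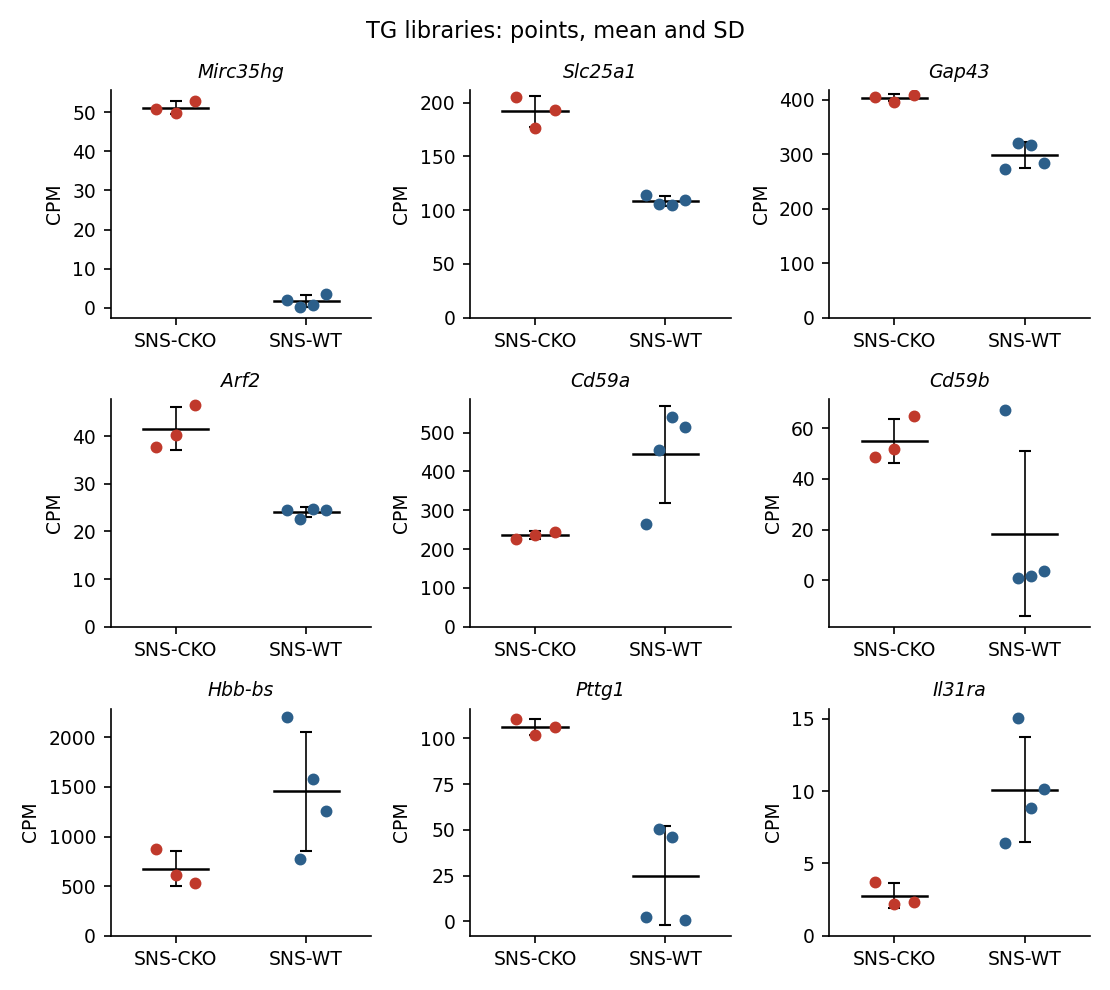
Levels in CPM (vertical axes) of 9 named genes in the 3 SNS-CKO libraries (left) and the 4 SNS-WT libraries (right) of TG, 1 point per library with a line at the group mean and whiskers of 1 SD. Slc25a1 and Gap43 are separated with little spread, while Cd59a has 1 SNS-WT library beside the SNS-CKO group and Hbb-bs overlaps.

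The genes nearest the threshold are given by their values, since they did not pass the test. Arf2, a small GTPase of Golgi vesicle coats, was read at 37.8, 40.4 and 46.5 CPM in SNS-CKO, against 24.5, 22.6, 24.8 and 24.5 CPM in SNS-WT, with a log2 change of 0.78 ± 0.15 (adjusted p = 0.0515 with edgeR and 0.034 with DESeq2). Lrrc17, a secreted leucine-rich repeat protein at high level, was read at 2758, 2111 and 2249.5 CPM in SNS-CKO, against 1456, 1544, 2021 and 1859 CPM in SNS-WT (adjusted p = 0.090). For both, all SNS-CKO libraries were above all SNS-WT libraries. Ppp3r1, the regulatory subunit of calcineurin, had a log2 change of 0.33, and Insig2, which retains the sterol sensor complex in the endoplasmic reticulum, one of 0.73. Slc52a2, a riboflavin transporter, had 0.55, Mpv17l, a relative of an inner mitochondrial membrane protein, 0.93, and Grn, the precursor of lysosomal granulins, 0.47. None of these overlapped between the groups, against 7.37% of all genes without overlap. Genes picked for a small p, as here, are likely to be separated.

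Pttg1 was the next gene by p among those higher in SNS-CKO, but not by an even difference. It encodes securin, an inhibitor of the separation of sister chromatids, and was read at 111, 102 and 106 CPM in SNS-CKO, against 2.33, 50.4, 46.1 and 0.596 CPM in SNS-WT. SNS-WT 1 and SNS-WT 4 were near 0 while SNS-WT 2 and SNS-WT 3 were at a middle level, so the fitted log2 change of 2.06 averaged unlike libraries (adjusted p = 0.090). Ublcp1, a phosphatase of the proteasome on the same chromosome, 11, was also lowest in SNS-WT 1 and SNS-WT 4, at 48.1, 49.7 and 55 CPM in SNS-CKO, against 18.9, 39.5, 36.7 and 23.6 CPM in SNS-WT.

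On the lower side the nearest gene was Il31ra, the receptor subunit of itch neurons for interleukin 31, at 3.75, 2.21 and 2.36 CPM in SNS-CKO, against 6.41, 15.1, 8.83 and 10.1 CPM in SNS-WT. The groups did not overlap, and the log2 change was -1.86 ± 0.39 (adjusted p = 0.090 with edgeR and 0.0495 with DESeq2). Ccng1, a cyclin G induced by p53, had a log2 change of -0.51. Homer1, a scaffold of metabotropic glutamate receptors, had -0.62, and Prkar2a, a regulatory subunit of protein kinase A, -0.42. Map2k6, the kinase above p38, had -0.72, and Dkk3, a secreted relative of Wnt inhibitors, -0.41. Their adjusted p lay between 0.21 and 0.30, and none of the 5 overlapped between the groups. These too were picked for a small p, and 7.37% of all genes were without overlap.

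The genes at this end of the ranking differed in how many held a seed match. Of the 14 genes with the smallest p among the higher ones, Mirc35hg left out, 8 had a site of at least 1 of the miRNAs in an annotated 3′ UTR, and 7 of the 8 had one of miR-96-5p: Gap43, Slc25a1, Arf2, Lrrc17, Ppp3r1, Insig2 and Mpv17l. Of the 14 on the lower side 1 had a site, Homer1. Among all 11763 tested genes with an annotated 3′ UTR, 3529 had a site of any of the 3, 8234 (70.0%) had none and 1322 (11.2%) had one of miR-96-5p. The windows below show sites of genes described above, written in the sense of the mRNA with the 7 bases that pair to the seed in capitals (GRCm38, GENCODE M21 3′ UTRs).
Slc25a1, miR-182-5p site, chr16:17925236-17925265, minus strand: tcaggaccaccTTGCCAAggagaataaacc
Gap43, miR-96-5p site, chr16:42248498-42248527, minus strand: ataaagcaaatGTGCCAAttagcgtaactt
Arf2, miR-96-5p site, chr11:103984140-103984169, plus strand: ttctttccattGTGCCAAagctagcagctc
Insig2, miR-96-5p site, chr1:121305593-121305622, minus strand: acaatgtcaatGTGCCAAacgtgttactga
The printed miR-96-5p sites of Arf2 and Insig2 are 8mers, in which an A follows the match, and that of Gap43 is a 7mer with a T in its place. A match is a description of the letters and does not show binding.

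Across all genes only 8mers of miR-96-5p stood off the background, of the 3 kinds of 8mer counted. Among 402 tested genes with a miR-96-5p 8mer, 60.9% had a positive log2 change, against 49.3% of the 11763 tested genes with an annotated 3′ UTR. Of the 402, 31 were higher at an unadjusted p under 0.05 (7.71%) and 5 lower (1.24%), against 3.32% and 3.30% of all such genes. Their median log2 change was 0.05, against -0.0031 over all such genes, while the median SE of a single gene was 0.183. For 8mers of miR-183-5p the counts were 10 higher and 8 lower of 266 genes, and for 8mers of miR-182-5p 22 higher and 19 lower of 694. Genes with a site of any kind numbered 3529, with 125 higher and 111 lower.

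Length of the 3′ UTR moved with the same values. Median changes were 0.04 for genes with a site and 0.02 for genes without one where the 3′ UTR was under 500 bases, and -0.04 and -0.05 where it was 4000 bases or more. Genes with a site were above genes without one in each of the 5 length bins, while the medians of both classes went down with length. Genes with a miR-96-5p 8mer had a median 3′ UTR of 2781 bases, in the range where the medians were below 0. The part of 3′ UTR length in the medians of the gene lists below was not tested.

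**Figure D3:**
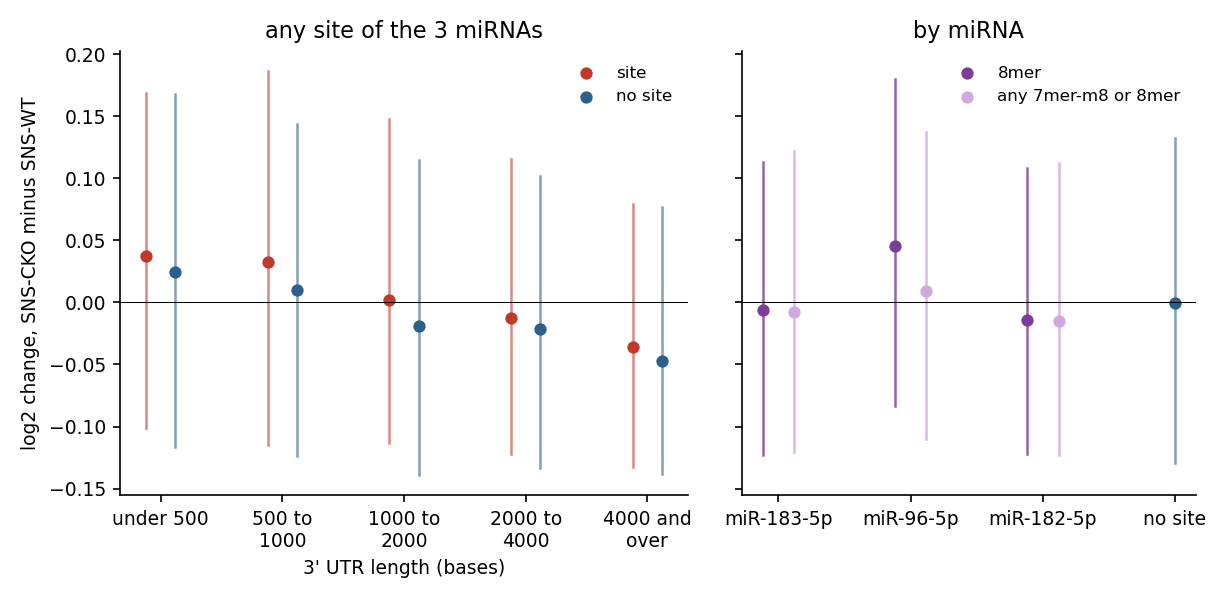
Median log2 change of SNS-CKO over SNS-WT TG (points, vertical axes) with quartiles (lines), at left for genes with and without a site of any of the 3 miRNAs by 3′ UTR length in bases, and at right by miRNA for 8mers, for any site and for genes with no site. Medians go down with length in both classes, and 8mers of miR-96-5p have the highest median at right, 0.05.

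Neuronal classes were read from marker lists, and no marker in them passed the adjusted p. General neuronal markers stood near the background in their median: of 17, 7 had a positive and 10 a negative log2 change, with a median of -0.03. An unadjusted p under 0.05 was found for 23.5% of them, against 6.67% of all genes. The tubulin Tubb3 (0.19 ± 0.08), the microtubule regulator Stmn3 (0.19 ± 0.08) and the ubiquitin hydrolase Uchl1 (0.17 ± 0.08) had unadjusted p under 0.05 on the higher side, and the neurofilament Nefm (-0.17 ± 0.07) on the lower side.

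Markers of nociceptors, the cells in which Cre acts, had mostly small negative changes. Of 13 tested, the log2 change was positive in 2 and negative in 11 (median -0.13). At an unadjusted p under 0.05, 3 were lower, against 3.21% of all genes. Ctxn3, a small membrane protein of non-peptidergic cells, had a log2 change of -0.36 ± 0.13, Cd55, a complement regulator, -0.23 ± 0.09, and Runx1, the transcription factor that sets non-peptidergic identity, -0.27 ± 0.12. Summed, the list lay at 2386, 2442 and 2397 CPM in SNS-CKO, against 2449, 2612, 2522 and 2552 CPM in SNS-WT. The groups did not overlap in the sum, by a gap of 6.44 CPM. Such a separation was found for the sums of 14 of the 66 lists, 6 higher and 8 lower in SNS-CKO, and several lists share genes.

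Peptidergic and non-peptidergic markers had the same direction. Of 11 tested peptidergic markers, 3 lay above 0 and 8 below it on the log2 scale, around a median of -0.12. Calca, the gene of calcitonin and CGRP, was read at 526, 523 and 539 CPM in SNS-CKO, against 546, 729, 658 and 547 CPM in SNS-WT, with a log2 change of -0.23 ± 0.09 and no overlap. Adcyap1, the gene of the neuropeptide PACAP, had -0.27 ± 0.12 without overlap, and Gal, galanin, -0.60 ± 0.27 with overlap. Of 11 tested non-peptidergic markers, 4 had positive and 7 negative log2 changes (median -0.05), and their sums did not overlap, at 1358 to 1452 CPM in SNS-CKO and 1468 to 1594 CPM in SNS-WT. Among them the kainate receptor subunit Grik1 had -0.32 ± 0.11, the granin Scg3 -0.16 ± 0.08 and the itch and pain receptor Mrgprd -0.23 ± 0.11.

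Itch neurons gave the lowest median of the neuronal classes, in genes of low level. Of 11 tested pruriceptor markers, 1 had a positive and 10 a negative log2 change, with a median of -0.66. Il31ra and Osmr, the 2 subunits of the interleukin 31 receptor, had log2 changes of -1.86 and -0.70. Cysltr2, a leukotriene receptor, was read at 1.44, 1.97 and 4.72 CPM in SNS-CKO, against 7.29, 5.45, 3.70 and 7.16 CPM in SNS-WT (-1.15 ± 0.47), and Npy2r, a neuropeptide Y receptor, at 5.19, 4.43 and 3.03 CPM in SNS-CKO, against 6.41, 5.97, 5.70 and 8.95 CPM in SNS-WT (-0.66 ± 0.38). Of the 11 tested markers 2 were without overlap, Il31ra and Npy2r, both lower in SNS-CKO, against 3.55% of all genes. The sums of the list, which Jak1, a kinase of many cell types, dominates, overlapped at 569 to 637 CPM in SNS-CKO and 605 to 696 CPM in SNS-WT. With members under 5 CPM left out the median was -0.29 over 7 genes.

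A-fibre mechanoreceptors and proprioceptors, most of which lie outside the Nav1.8 lineage, also had more negative than positive markers: of 21 tested, the log2 change was positive in 6 and negative in 15 (median -0.13). Summed, this list lay at 5940.5 to 6760 CPM in SNS-CKO and 6796 to 7207.5 CPM in SNS-WT. The groups did not overlap in this sum either, by a gap of 36.2 CPM. Scn1a, a sodium channel of fast-firing neurons, was read at 198, 203 and 205 CPM in SNS-CKO, against 239, 249, 249 and 240.0 CPM in SNS-WT, with a log2 change of -0.27 ± 0.08 and no overlap. Cntnap2, which clusters potassium channels beside the node, had -0.22 ± 0.10, also without overlap. Of 7 tested markers of C low-threshold mechanoreceptors, 4 lay above 0 and 3 below it on the log2 scale, around a median of 0.01, and Fam19a4, a secreted protein of these cells, had 0.32 ± 0.15 without overlap. Negative medians were thus read in classes inside and outside the Nav1.8 lineage, and no difference between the classes was tested.

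Ion channels were described by family, and none of their genes passed the adjusted p. Genes with long 3′ UTRs had negative medians as a class (above), and the part of length in these families was not tested. Voltage-gated potassium channels, which repolarise the membrane, had 38 tested genes, of which 12 had positive and 26 negative log2 changes (median -0.09). In 7 of the 38 all SNS-CKO libraries were below all SNS-WT libraries and in 0 above, against 3.55% and 3.82% of all genes. Kcna2, the channel flanking the node of myelinated axons, was read at 571, 622 and 594 CPM in SNS-CKO, against 672, 665, 713 and 745 CPM in SNS-WT (-0.23 ± 0.08), and Kcnh7, an ERG channel, at a log2 change of -0.29 ± 0.11. The summed family lay at 4869, 5226 and 5193 CPM in SNS-CKO, against 5396, 5376, 5673 and 5491 CPM in SNS-WT, without overlap.

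Sodium and calcium channels also had more negative than positive changes. Of 12 voltage-gated sodium channel genes, 3 had a positive and 9 a negative log2 change, with a median of -0.09, and Scn1a was the one with an unadjusted p under 0.05. Of 16 calcium channel genes, the log2 change was positive in 7 and negative in 9 (median -0.05). The auxiliary subunits stood on both sides: Cacnb1, a beta subunit, at 0.48 ± 0.13 and Cacna2d2, an alpha2delta subunit that carries channels to the membrane, at 0.42 ± 0.15, with Cacng7, a gamma subunit that also traffics AMPA receptors, at -0.35 ± 0.11. Cacna2d2 was read at 121, 131 and 83.3 CPM in SNS-CKO, against 81, 58.4, 98.8 and 98.1 CPM in SNS-WT, and the groups overlapped.

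Chloride channels and nicotinic and 5-HT3 receptors had lower sums in SNS-CKO. Chloride channel genes summed to 1482, 1496 and 1518 CPM in SNS-CKO, against 1658, 1650.0, 1585 and 1603 CPM in SNS-WT, and nicotinic and 5-HT3 receptor genes to 121, 123 and 114 CPM in SNS-CKO, against 136, 132, 142 and 137 CPM in SNS-WT. Neither sum overlapped, and of their 19 and 7 tested genes 13 and 5 had negative changes. Other ligand-gated cation channels overlapped in their sums: of 13 ionotropic glutamate receptor genes, 9 lay above 0 and 4 below it on the log2 scale, around a median of 0.06, and of 8 acid-sensing and purinergic channel genes, 4 had positive and 4 negative log2 changes (median 0.02). Of 18 TRP and Piezo channels, 6 had a positive and 12 a negative log2 change, with a median of -0.11, with Trpm3, a heat sensor, at 0.37 ± 0.18 and Pkd2, a polycystin of cilia and endoplasmic reticulum, at -0.43 ± 0.21.

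Single receptor channels had larger changes than the medians of their families. P2rx7, an ATP-gated channel found mainly in glia and macrophages, was read at 21.6, 17.5 and 24.9 CPM in SNS-CKO, against 10.2, 15.8, 10.5 and 13.4 CPM in SNS-WT (0.76 ± 0.23). Gria1, an AMPA receptor subunit, was read at 21, 17.7 and 22.3 CPM in SNS-CKO, against 10.5, 14.5, 11.1 and 8.05 CPM in SNS-WT (0.87 ± 0.23). Both were without overlap, with adjusted p of 0.43 and 0.35. Gabra4, a GABA-A receptor subunit, had -0.81 ± 0.38 at under 10 CPM.

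**Figure D4:**
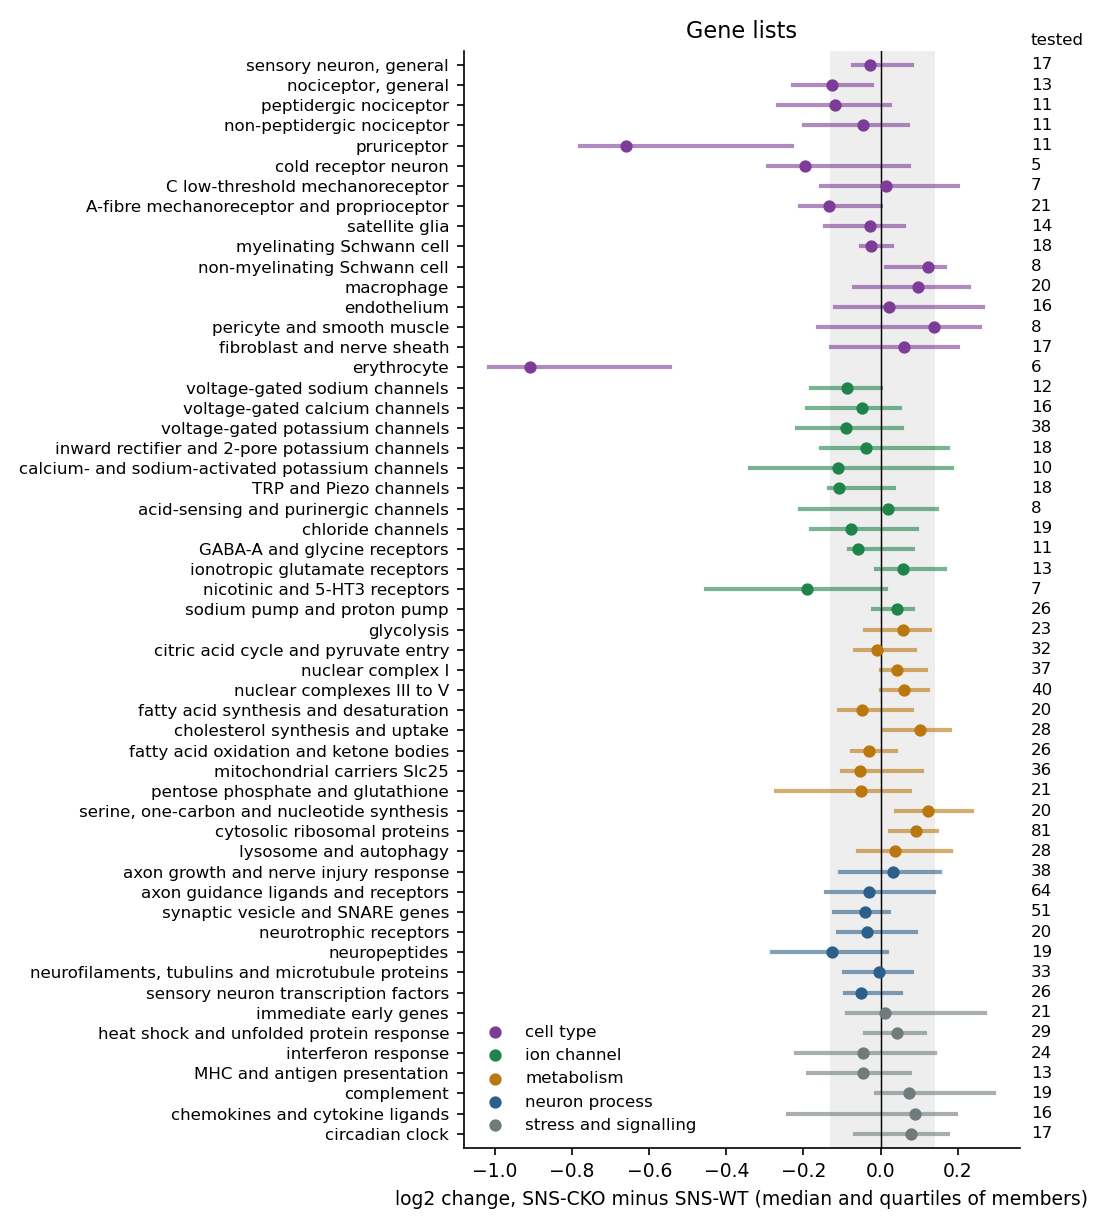
Median log2 change of SNS-CKO over SNS-WT TG for each gene list (points) with its quartiles (bars), horizontal axis in log2 units, lists down the page with the number of tested members at right. The vertical line marks 0 and the grey band the quartiles of all 12769 genes. Most lists lie within 0.15 of 0, and pruriceptor and erythrocyte genes reach -0.66 and -0.91.

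Metabolic genes were read around Slc25a1. Its substrate citrate feeds cytosolic acetyl-CoA, from which fatty acids and cholesterol are built. Of 28 genes of cholesterol synthesis and uptake, the log2 change was positive in 21 and negative in 7 (median 0.10). Against 3.46% of all genes, 3 were higher at an unadjusted p under 0.05. Among these Insig2 was read at 38.6, 36.2 and 32 CPM in SNS-CKO, against 21.9, 22.3, 25.9 and 15.8 CPM in SNS-WT, without overlap, with a log2 change of 0.73. The summed list lay at 3823, 3548 and 3535 CPM in SNS-CKO, against 3354, 3348, 3389 and 3382 CPM in SNS-WT, so every SNS-CKO library was above every SNS-WT library.

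Fatty acid synthesis did not have the same direction. Of 20 genes, 7 lay above 0 and 13 below it on the log2 scale, around a median of -0.05, Slc25a1 included, and Elovl6, an elongase of long-chain fatty acids, had -0.19 ± 0.09. The sums overlapped, at 3279 to 3362 CPM in SNS-CKO and 3210.3 to 3399 CPM in SNS-WT. Of 36 mitochondrial carriers of the Slc25 family, Slc25a1 included, 15 had positive and 21 negative log2 changes (median -0.05). Leaving out single libraries moved that median to between -0.0333 and 0.0152, and it was above 0 without SNS-CKO 3.

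Respiratory chain genes had mostly small positive changes. Of 37 nuclear genes of complex I, 28 had a positive and 9 a negative log2 change, with a median of 0.04. Of 40 of complexes III to V, the log2 change was positive in 30 and negative in 10 (median 0.06). An unadjusted p under 0.05 was found for 0 of the 77, against 6.67% of all genes. Mitochondrially encoded genes, 8 of 13 of them tested, had 7 positive changes and a median of 0.14. They took 3.58%, 3.65% and 3.62% of the counts in SNS-CKO, against 3.23%, 3.30%, 3.15% and 3.80% in SNS-WT. SNS-WT 4 was above the SNS-CKO libraries and the other 3 SNS-WT libraries were below them. Of 23 glycolysis genes, 14 lay above 0 and 9 below it on the log2 scale, around a median of 0.06, and of 32 genes of the citric acid cycle, 15 had positive and 17 negative log2 changes (median -0.01), where Pdhb, a subunit of pyruvate dehydrogenase, had 0.33 ± 0.13.

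Biosynthetic and translational genes were mostly on the positive side. Of 20 genes of serine, one-carbon and nucleotide synthesis, 15 had a positive and 5 a negative log2 change, with a median of 0.12. Their sums did not overlap, at 733, 714 and 708 CPM in SNS-CKO, against 656, 643, 675 and 672 CPM in SNS-WT. Impdh1, a step of guanine nucleotide synthesis that lies within 1 Mb of the deleted cluster, had 0.24 ± 0.11. Of 81 cytosolic ribosomal protein genes, many of which have near-identical copies that can share reads, the log2 change was positive in 67 and negative in 14 (median 0.09). In 9 of the 81 all SNS-CKO libraries were above all SNS-WT libraries and in 1 below, against 3.82% and 3.55% of all genes. At an unadjusted p under 0.05, 8 were higher and 1 lower, against 3.46% and 3.21%. Rpl35 had the smallest p of those named, at 94.6, 106 and 96.4 CPM in SNS-CKO, against 65.9, 86.5, 70.6 and 70.4 CPM in SNS-WT (0.43 ± 0.11), with Rps12 at 0.32 ± 0.10 and Rps19 at 0.24 ± 0.08. The summed list lay at 16704 to 17287 CPM in SNS-CKO and 14905 to 16671 CPM in SNS-WT, with a gap of 33.1 CPM between the groups. Genes with short 3′ UTRs had positive medians as a class (above), and the part of 3′ UTR length in these lists was not tested.

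Of 28 genes of lysosomes and autophagy, 17 lay above 0 and 11 below it on the log2 scale, around a median of 0.04. On the higher side 4 had an unadjusted p under 0.05 and on the lower side 0, against 3.46% and 3.21% of all genes. The 4 were Grn at 131, 84.1 and 107 CPM in SNS-CKO, against 81, 78.7, 76.9 and 72.5 CPM in SNS-WT, Becn1, which nucleates autophagosomes, at 0.78 ± 0.27, Npc2, a carrier of lysosomal cholesterol, at 0.23 ± 0.09, and Psap, the precursor of saposins, at 0.21 ± 0.10. Proton pump genes, which acidify lysosomes and vesicles, were listed with the sodium pump: of 26, 19 had positive and 7 negative log2 changes (median 0.04). Atp6v1f, which lies within 1 Mb of the cluster, had 0.29 ± 0.08 and Atp6v0b 0.33 ± 0.10. Of 21 genes of the glutathione and pentose phosphate list, 8 had a positive and 13 a negative log2 change, with a median of -0.05. At an unadjusted p under 0.05, 3 were higher and 2 lower, against 3.46% and 3.21% of all genes. G6pdx, the first enzyme of the pentose phosphate pathway, had -0.46 ± 0.21 without overlap, and Pgls, the next enzyme, 0.26 ± 0.12. The glutathione transferase Gstp1 was read at 3.46, 4.67 and 6.74 CPM in SNS-CKO, against 2.91, 2.86, 1.71 and 2.09 CPM in SNS-WT, without overlap, and Gstm5 had 0.23 ± 0.10.

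**Figure D5:**
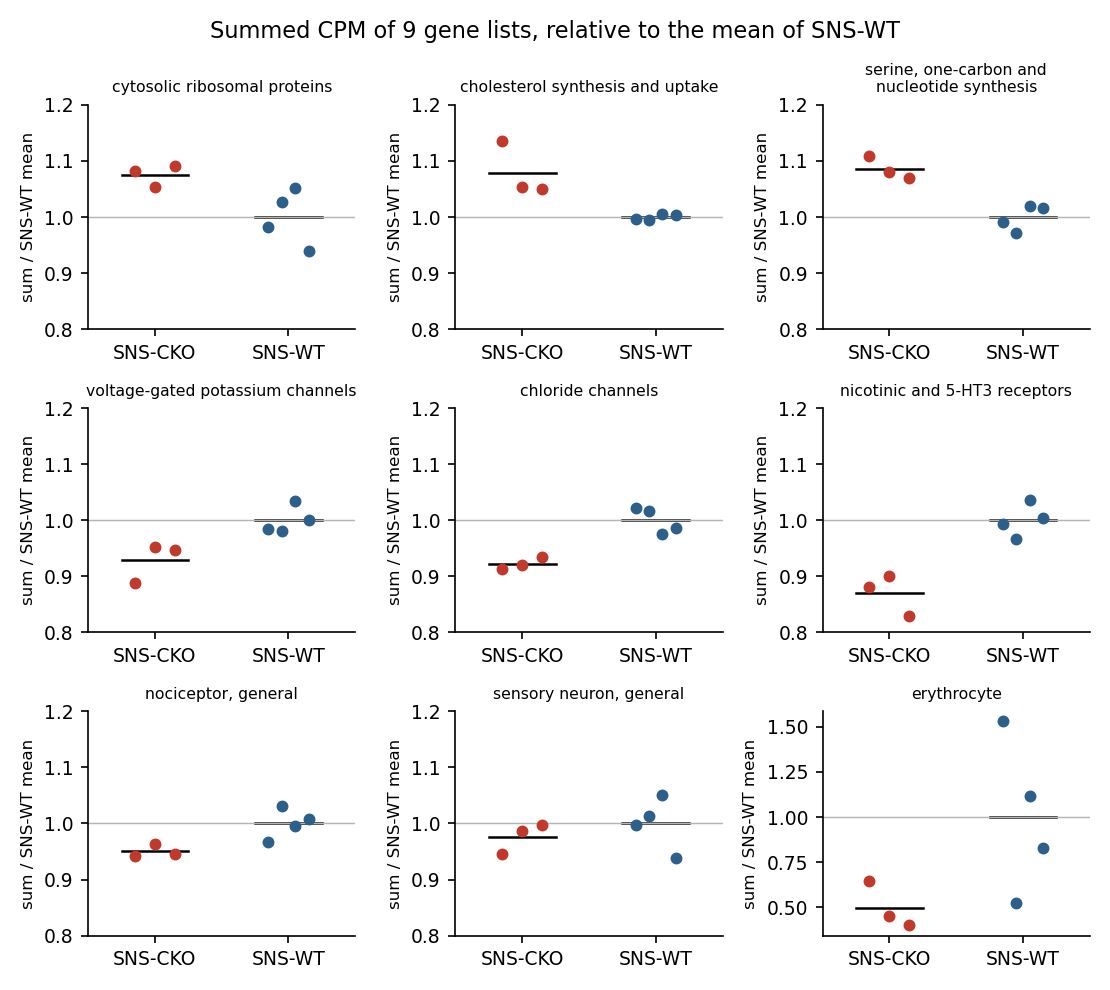
Summed CPM of 9 gene lists divided by the SNS-WT mean of the list (vertical axes, not from 0) in the 3 SNS-CKO libraries (left) and the 4 SNS-WT libraries (right) of TG, 1 point per library with a line at the group mean. Sums of voltage-gated potassium channels and chloride channels lie lower in SNS-CKO and those of cholesterol and serine pathway genes higher, without overlap, while erythrocyte genes, on a wider axis, spread from 1165 to 3386 CPM among the SNS-WT libraries.

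Genes of axon growth and guidance had changes on both sides. Of 38 genes of axon growth and nerve injury, the log2 change was positive in 21 and negative in 17 (median 0.03), with Gap43 the one that passed. Hspb1, a heat shock protein that rises after axotomy, had 0.30 ± 0.10, Sema6a, a repulsive guidance cue, -0.49 ± 0.15, and Anxa1, annexin A1, -1.60 ± 0.58 at under 6 CPM. Of 64 guidance genes, 28 lay above 0 and 36 below it on the log2 scale, around a median of -0.03, with Sema6d at -0.44 ± 0.12. Atf5, a factor of the mitochondrial stress response, had 0.36 ± 0.11.

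Of 51 genes of synaptic vesicles and SNARE proteins, 17 had positive and 34 negative log2 changes (median -0.04). Rims2, an active zone scaffold, had -0.34 ± 0.12 and Rab27b, a GTPase of dense core vesicles, -0.36 ± 0.13, both without overlap. Of the SNAREs that serve exocytosis outside synapses, Snap23 had -0.79 ± 0.31 and Stx4a 0.25 ± 0.11. Of 19 neuropeptide genes, 5 had a positive and 14 a negative log2 change, with a median of -0.13. In 6 all SNS-CKO libraries were below all SNS-WT libraries and in 1 above, against 3.55% and 3.82% of all genes. Their sums did not overlap, at 3297 to 3339 CPM in SNS-CKO and 3394 to 3656 CPM in SNS-WT. The gene above was Vgf, a precursor of secreted peptides, at 93.1, 104 and 74.2 CPM in SNS-CKO, against 74, 70.7, 72.6 and 62 CPM in SNS-WT (0.38 ± 0.12).

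Of 33 genes of neurofilaments, tubulins and microtubule proteins, 16 had a positive and 17 a negative log2 change, with a median of -0.003, with Ina, an intermediate filament, at 0.58 ± 0.20 and Map1b, a microtubule binder of growing axons, at -0.19 ± 0.08. Transcription factors of sensory neurons had 9 positive and 17 negative changes of 26, with a median of -0.05. Shox2, a factor of mechanoreceptors, had -0.34 ± 0.12 and Tshz2 -0.21 ± 0.08, beside Runx1.

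Lists of cells outside the neurons had medians on both sides of 0. Of 18 markers of myelinating Schwann cells, the log2 change was positive in 8 and negative in 10 (median -0.02). An unadjusted p under 0.05 was found for 0 of them, against 6.67% of all genes. Of 14 satellite glia markers, 5 lay above 0 and 9 below it on the log2 scale, around a median of -0.03, with Glul, the glutamine synthetase that clears glutamate, at 539, 532 and 514 CPM in SNS-CKO, against 439, 484, 466 and 480.1 CPM in SNS-WT (0.18 ± 0.08) and Fbln5, a fibulin of elastic fibres, at -0.36 ± 0.13. Of 16 endothelial genes, 8 had positive and 8 negative log2 changes (median 0.02). Of 17 fibroblast and nerve sheath genes, 9 had a positive and 8 a negative log2 change, with a median of 0.06, and the collagens Col1a1 (-0.47 ± 0.19) and Col1a2 (-0.31 ± 0.12) were on the negative side with overlap. Further from 0 were the lists of non-myelinating Schwann cells, where, of 8 genes, the log2 change was positive in 6 and negative in 2 (median 0.12), of pericytes and smooth muscle, where, of 8 genes, 5 lay above 0 and 3 below it on the log2 scale, around a median of 0.14, and of neutrophils and monocytes, where all 3 tested genes had negative log2 changes (median -0.59). Their sums overlapped.

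Macrophages, which carry the Csf1r-EGFP transgene in both groups, had 11 positive and 9 negative changes among 20 tested markers, with a median of 0.10 and sums of 336 to 396 CPM in SNS-CKO and 314 to 446 CPM in SNS-WT. The sums overlapped, and Cd74, the invariant chain of MHC class II, was the one marker with an unadjusted p under 0.05, at -0.39 ± 0.16. Of 19 complement genes, 12 had positive and 7 negative log2 changes (median 0.07), with Cd59a among them. Their sums, which include Cd59a, lay at 1303 to 1409.8 CPM in SNS-CKO and 1455 to 1649 CPM in SNS-WT without overlap. The mean sum was 1545 CPM in SNS-WT and 1354 CPM in SNS-CKO. This fall was smaller than that of Cd59a alone, from 444 CPM in SNS-WT to 236 CPM in SNS-CKO. Of 16 chemokine and cytokine ligands, 9 had a positive and 7 a negative log2 change, with a median of 0.09, and Il33, an alarmin of stromal and barrier cells, had 0.65 ± 0.24 without overlap. Of 17 clock genes, the log2 change was positive in 11 and negative in 6 (median 0.08), with Ciart, a repressor of the clock, at 1.11 ± 0.41.

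Lists of miR-183C targets were read last. Of 15 targets of the cluster known from other tissues, 11 lay above 0 and 4 below it on the log2 scale, around a median of 0.06. Against 3.46% of all genes, 3 were higher at an unadjusted p under 0.05, among them the forkhead factor Foxo3 (0.34 ± 0.12) and the adenylyl cyclase Adcy6 (0.54 ± 0.23). Dkk3, at -0.41, was the one on the lower side. Of the targets that the study listed for TG terms 36 were tested and 26 had positive and 10 negative log2 changes (median 0.17). In this list 16 were higher at an unadjusted p under 0.05 and 0 lower, against 3.46% and 3.21% of all genes. Gap43, Ppp3r1, Gria1 and the integrin Itga3 (0.47 ± 0.14) led. Cx3cl1, the chemokine fractalkine and a member of the list, was on the negative side at 4.90, 2.71 and 3.71 CPM in SNS-CKO, against 7.58, 7.01, 4.56 and 6.26 CPM in SNS-WT (-0.76 ± 0.40), with overlap. The paper reports Cx3cl1 as raised in TG of conventional KO mice and in cornea of SNS-CKO mice, which are not among these samples. The study drew its TG list from TG of both SNS-CKO and conventional KO mice, so the list was chosen in part on these samples. Its counts are therefore not independent evidence of direction. Of 10 genes that its text names among the targets it also followed as proteins, an incomplete copy of that set, 7 had a positive and 3 a negative log2 change, with a median of 0.08, with Slc25a1 the one that passed and Prkce, a protein kinase C of nociceptors, at 0.17 ± 0.08.

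TG of MS-CKO mice is the most similar comparison in the series, with 5 MS-CKO and 5 MS-WT libraries. There LysM-Cre(+/-), carried by the MS-CKO mice alone, deleted the floxed cluster in myeloid cells, and MS-WT littermates were LysM-Cre(-/-) with the same floxed cluster, all with Csf1r-EGFP(+/+). The difference between the CKO effects of the strains passed the adjusted p for 1 of 13728 genes (0.00728%), Mirc35hg, and 572 (4.17%) had an unadjusted p under 0.05. Mirc35hg had a log2 change of 5.0 ± 0.31 in SNS-CKO and 1.43 ± 0.35 in MS-CKO, a difference of 3.57 ± 0.57 (adjusted p = 0.0071). Slc25a1 had 0.82 ± 0.09 in SNS-CKO and 0.13 ± 0.10 in MS-CKO, a difference of 0.69 ± 0.16 (adjusted p = 0.36). Cd59a had -0.91 ± 0.14 in SNS-CKO and 0.01 ± 0.11 in MS-CKO (adjusted p of the difference = 0.10), and Gap43 0.43 ± 0.08 in SNS-CKO and 0.09 ± 0.10 in MS-CKO (adjusted p of the difference = 1.0). Of these 4 genes the difference between the strains was past the threshold for Mirc35hg alone, while DESeq2 passed 4 genes, Cd59a and Slc25a1 among them. The SNS groups differed in the floxed allele as well as in its deletion, while both MS groups were floxed. Deletion and floxed allele therefore cannot be told apart in this difference. Of the 10 MS columns 5 hold the same values as columns named for another strain, and 1 of these, MS-CKO 3, as a column named WT, so the genotype behind the MS-CKO values is uncertain in part. Without the 5 columns the difference passed for 4 genes, Mirc35hg included.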

How the data were processed

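The libraries were made with the QuantSeq 3′ mRNA FWD kit and sequenced on a NovaSeq, and the authors aligned reads to mm10 with STAR and tabulated them with HTSeq. The sources used here give neither versions, annotation nor use of strand, so near-identical and overlapping genes are uncertain. The authors deposited raw counts of reads for 35976 gene rows, without normalization. Of 54 per-sample columns 9 were not used. Among the rows 27 symbols had become dates (at most 0.2045% of counts), and 2 symbols stood on more than 1 row.

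Counts of the 7 SNS libraries (median 3469250) were tested in edgeR 4.0.16 (R 4.3.3) with TMM, default filterByExpr, the quasi-likelihood F test of SNS-CKO against SNS-WT and Benjamini-Hochberg adjustment at 0.05. The SE is the log2 change over the square root of F. The strain by genotype term was fitted over 17 libraries. Gene lists were described by counts, medians and sums and not tested. Sites were 8mer and 7mer-m8 matches in 3′ UTRs of GENCODE M21, and mature miRNAs came from RefSeq.

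The comparison, gene lists, alternatives and naming rule were chosen with earlier results of these data known. Named were genes past the threshold, the next 12 in each direction at a mean of 2 CPM or more, and per list up to 3 of the highest and 4 of the smallest p; some were left out, and some genes and sites are not reported here. Alternatives were RLE factors, DESeq2 1.42.0, no filter, all TG groups in 1 fit, a replicate block, leaving out each library, unadjusted p and the other reading of the names. The fit was tested on simulated data.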

Additional observations from a re-analysis of the deposited data

Results flagged for a closer look

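Arf2 was set apart by 1 sample: SNS-WT 2 was read at 22.6 CPM, below the other SNS-WT libraries at 24.5 to 24.8 CPM, and below all SNS-CKO libraries. The distance is small in CPM and large only against the narrow spread of the other 3.

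Cd59b was set apart by SNS-WT 1 at 67.3 CPM, against 0.779 to 3.58 CPM in the other SNS-WT libraries and 48.7 to 65.1 CPM in SNS-CKO. Chance gives such a sample in about 1 of 20 groups of 4, and 2 were found among the 95 genes looked at.

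The change of Mirc35hg differed between the strains, by 3.57 on the log2 scale for SNS minus MS. It was higher in 3 of 3 SNS-CKO libraries than in any SNS-WT library.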

How the results depend on the processing

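The count of 5 genes past the adjusted p (3 higher, 2 lower) was 5 with RLE factors and 5 with DESeq2 (4 higher, 1 lower), 3 of them shared with edgeR. It was 33 with no filter on low counts (18 higher, 15 lower) among 22847 genes, 3 in a fit of all TG groups (2 higher, 1 lower) and 852 without adjustment (442 higher, 410 lower). Leaving out 1 library gave 2 to 11 genes, 2 to 6 higher and 0 to 5 lower. The counts were 4, 2 and 2 without SNS-CKO 1, 2 and 3, and 8, 11, 9 and 4 without SNS-WT 1, 2, 3 and 4. Mirc35hg and Slc25a1 passed in each of these fits. With the other reading of the column names 0 of 12744 genes passed in edgeR (0 higher, 0 lower) and 467 had an unadjusted p under 0.05. That reading took the TG columns here called MS-CKO 1, 2 and 3 and MS-WT 1, 2, 3 and 4. Values of 5 of these columns also stand under names of another strain, those of MS-CKO 3 under a WT name. With the replicate number as a block 8 genes passed (3 higher, 5 lower), 4 of them among the 5. Replicate numbers were not taken to pair the libraries. Same-numbered libraries correlated at -0.0381, -0.0395 and -0.0746 in their deviations from the group means. No SNS-CKO library correlated best with the SNS-WT library of its own number. Such values cannot show whether libraries share a litter. The difference between strains passed for 1 gene with TMM or RLE factors, 18 with no filter, 3 with a batch term, 4 with DESeq2 and 4 without the repeated MS columns, which was added after the data were seen.

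With no filter Cd59a, Gap43, Hbb-bs, Mirc35hg and Slc25a1 all passed. Of 95 named genes, Scn10a turned its sign, from -0.0458 without SNS-WT 3 to 0.047 without SNS-WT 2 and 0.0213 without SNS-CKO 2, and no other did. For Gap43 the adjusted p was 1.0 in a fit of all TG groups and 0.14 with the block, and for Hbb-bs 0.63 in a fit of all TG groups. Of the 64 list medians, 3 moved by more than the spread between replicates with members under 5 CPM left out: peptidergic nociceptor to -0.17, pruriceptor to -0.29 and inward rectifier and 2-pore potassium channels to -0.0945. RLE factors and DESeq2 moved none that far. Leaving out 1 library moved 24 of them that far, and the ranges that follow are of these 24. Medians that kept their sign ran from -0.17 to -0.0845 for nociceptors, -0.22 to -0.063 for peptidergic nociceptors, -0.74 to -0.49 for pruriceptors, -0.23 to -0.0013 for cold receptor neurons and -0.0896 to -0.0004 for satellite glia. They ran from -0.14 to -0.0128 for TRP and Piezo channels, -0.12 to -0.0262 for chloride channels, -0.0542 to -0.0066 for fatty acid synthesis, 0.0012 to 0.15 for ionotropic glutamate receptors, 0.017 to 0.079 for pumps, 0.0255 to 0.11 for glycolysis and 0.0645 to 0.16 for the serine and one-carbon list. The lists chosen by the study ran from 0.15 to 0.19 for TG terms and 0.0274 to 0.12 for proteins. Medians that crossed 0 ran from -0.045 to 0.0149 for general neuronal markers, -0.0119 to 0.14 for macrophages, -0.0834 to 0.0213 for inward rectifiers, -0.0888 to 0.0139 for GABA-A receptors, -0.0255 to 0.0306 for the citric acid cycle, -0.0333 to 0.0152 for Slc25 carriers, -0.0361 to 0.0141 for guidance genes, -0.0049 to 0.11 for heat shock genes, -0.0617 to 0.15 for chemokines and -0.0872 to 0.0268 for miRNA processing. Other medians crossed 0 while moving less. Among them were C low-threshold mechanoreceptors (-0.0753 to 0.0955), myelinating Schwann cells (-0.0377 to 0.0444) and axon growth genes (-0.008 to 0.053). The causes were not tested. Depth limits rare genes: under 5 CPM the median SE was 0.483.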

Other observations

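Further gene groups stood near the background. Of 25 genes of miRNA processing and silencing, 13 had a positive and 12 a negative log2 change, with a median of 0.0013. Of 20 neurotrophic receptor genes, 8 had a positive and 12 a negative log2 change, with a median of -0.03. An unadjusted p under 0.05 was found for 0 of them, against 6.67% of all genes. Of 21 immediate early genes, which neuronal activity and dissection induce, the log2 change was positive in 13 and negative in 8 (median 0.01), also with 0. Heat shock and unfolded protein response genes had 18 positive and 11 negative changes of 29, interferon response genes 11 and 13 of 24, and genes of antigen presentation 4 and 9 of 13. Hormone genes of the pituitary, which lies beside the TG, summed to 206, 186 and 50.9 CPM in SNS-CKO, against 337, 207, 137 and 28.3 CPM in SNS-WT and overlapped.

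A set of genes on chromosome 11 differed among the SNS-WT libraries themselves. These genes were picked after their values had been seen. Ubb, a polyubiquitin gene that most cells express, was read at 1493, 1370.0 and 1447 CPM in SNS-CKO, against 42.8, 1504, 790.0 and 52.5 CPM in SNS-WT, so SNS-WT 2 was at the SNS-CKO level and SNS-WT 1 and SNS-WT 4 were far below it. The gene 2610507I01Rik was read at 29.4, 31.7 and 39.1 CPM in SNS-CKO, against 2.33, 34.8, 10.8 and 3.88 CPM in SNS-WT, with the same libraries lowest. Pttg1 (chr11:43420250-43426251) and Ublcp1 (chr11:44454571-44470498), given above, were also lowest in SNS-WT 1 and SNS-WT 4. Their SNS-CKO libraries lay close together, and none of the 4 genes passed the adjusted p. On chromosome 2 the library that differed was SNS-WT 1, high in Cd59b (chr2:104069849-104091187) and low in Cd59a (chr2:104095801-104115354) beside it. The mice were of mixed strain background, and the cause of these differences within SNS-WT was not tested.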
